A study of Mus musculus with 8 samples.

Results

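The 8 genes described here mark antibody-secreting plasma cells of the gut and the route by which their IgA reaches the lumen: Igj, Pigr, Mzb1, Sdc1, Tnfrsf17, Prdm1, Pou2af1 and Fkbp11. They were taken by name from the 35715 names on a whole-genome mouse expression array, and all 8 were among the 21368 genes tested. The array carries Igj under its newer name Jchain, matched as a RefSeq synonym, and the other 7 under the names above. All 8 samples were total RNA from the ileum of female mice. Their strain entries give 1 strain, Rosa26rtTA/+, Hprt Myc-Tnk1tg. In that strain doxycycline switches on a Myc-tagged copy of the kinase Tnk1 placed at Hprt. It acts through an rtTA activator placed at the broadly active Rosa26 locus. 4 samples came after an intraperitoneal injection of doxycycline at 50 µg per g body weight in 100 µl, and 4 after 100 µl of 0.9% NaCl, both at 24 h. The titles of the saline samples call them wild type while their strain entry gives the transgenic strain. No group here received doxycycline without the transgene, so the drug and the kinase cannot be told apart. If the titles are right, genotype cannot be told apart from treatment either.

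Plasma cells under the intestinal epithelium secrete IgA as a dimer held together by the J chain. The polymeric immunoglobulin receptor on the basal side of epithelial cells binds that dimer, carries it across the cell and releases it into the lumen with part of the receptor attached. Plasma cells arise from B cells, many of them in Peyer's patches, under factors that shut down the B cell programme and enlarge the secretory apparatus. In bulk tissue, fewer cells of a type and less RNA per cell cannot be told apart.

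With doxycycline, 2 of the 8 genes were lower and 1 was higher, at an adjusted p under 0.05 in limma's moderated test with p-values adjusted (Benjamini-Hochberg) across every gene tested. The lower genes were Tnfrsf17, the receptor for plasma cell survival signals, and Igj, the J chain, and the higher gene was Prdm1, the regulator that drives plasma cell differentiation. Pigr was also lower on the probe that lies on chromosome 1 but not on a brighter probe of the same name, which is made of a short repeat. With the chromosome 1 probe the count was 3 lower, 1 higher and 4 not called. Over all genes tested, 8.14% were called lower and 5.95% higher, and 6721 of the 21368 had an unadjusted p under 0.05. The groups did not overlap for 4 genes of the 8, or for 5 with the chromosome 1 probe, against 22% of all genes tested. The labels do not say that the 4 samples of a group came from separate animals, so each p reflects only how these samples varied, which may be technical.

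The sequences just upstream of 3 of these genes are shown, those called lower when Pigr is read by its chromosome 1 probe. Prdm1, called higher, held 0 matches to the motifs described below and is not shown. Each line gives the 250 bases before the RefSeq transcription start on build GRCm38.p6, 5′ to 3′ on the strand of the gene, with motif matches in capitals. Igj lies on the minus strand at chr5:88527898-88528147, Pigr on the plus strand at chr1:130826434-130826683, and Tnfrsf17 on the plus strand at chr16:11313559-11313808.
Igj: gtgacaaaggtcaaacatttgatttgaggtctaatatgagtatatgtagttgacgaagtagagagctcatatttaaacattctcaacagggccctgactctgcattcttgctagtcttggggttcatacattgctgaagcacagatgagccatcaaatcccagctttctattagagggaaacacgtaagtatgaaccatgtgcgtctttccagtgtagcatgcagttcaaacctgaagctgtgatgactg
Pigr: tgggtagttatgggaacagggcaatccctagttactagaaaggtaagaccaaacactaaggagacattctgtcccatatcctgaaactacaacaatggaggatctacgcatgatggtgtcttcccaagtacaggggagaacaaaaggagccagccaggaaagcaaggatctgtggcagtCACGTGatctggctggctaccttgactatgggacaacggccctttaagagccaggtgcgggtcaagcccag
Tnfrsf17: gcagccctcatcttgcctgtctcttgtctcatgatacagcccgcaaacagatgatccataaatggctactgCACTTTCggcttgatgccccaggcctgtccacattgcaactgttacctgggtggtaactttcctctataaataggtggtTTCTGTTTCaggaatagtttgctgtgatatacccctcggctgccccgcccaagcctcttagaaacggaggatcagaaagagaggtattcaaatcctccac
6 motifs were searched on both strands in 250 bases before and 50 after each start, in the 7 genes that had an entry. They were the octamer ATGCAAAT, bound by the partners of Pou2af1, the PRDM1 core GAAAGTG, the interferon regulatory factor motif GAAANNGAA, the NF-kB motif GGGANTTCC, the E-box CACGTG and the XBP1 motif TGACGTGG. The capitals in Pigr are an E-box at position −71 from the start site. In Tnfrsf17 they are CACTTTC, the PRDM1 core on the opposite strand, at position −179, and TTCTGTTTC, the interferon regulatory factor motif on the opposite strand, at position −100. The only other upstream match was an XBP1 motif in Pou2af1, and Fkbp11 held an E-box after its second start. The share of 32851 promoters of the same length holding each motif was 1.74% for the octamer, 4.81% for the PRDM1 core, 8.56% for the interferon regulatory factor motif, 1.68% for NF-kB, 7.15% for the E-box and 0.676% for XBP1. A match describes letters only, and no match says only that the letters are not in this window.

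Levels below are log2 processed intensities relative to the 75th percentile of the same array, so that 0 is the level of that percentile. Differences are doxycycline minus saline on the same log2 scale, with the standard error (SE), and n = 4 arrays per group throughout. The exact permutation test over the 70 regroupings of 8 arrays is two-sided and cannot give a p below 0.0286. Each gene is read by its brightest probe that the scanner software marked well above background in 4 or more of the 8 arrays. Its level is not set against the level of another gene.

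All 8 arrays lay on 1 slide, with doxycycline in row 1 and saline in row 2, so row and group cannot be told apart. Arrays of the same number in both groups lay in the same slide column. No probe spot was saturated. Between 54.8% and 57.0% of probes were well above background on the doxycycline arrays, and between 39.7% and 43.1% on the saline arrays. The part of this gap in the results was not tested. The median difference of all genes tested was 0.01. Of the 2 probes named Tnk1, 1 gave 0.13, 0.57, 0.60 and 0.35 with doxycycline and −2.14, −2.24, −2.12 and −2.99 with saline, a difference of 2.78, or 6.89-fold (limma adjusted p = 4.77e-04), and the other gave −0.46 (limma adjusted p = 0.147). Hprt, where the transgene sits, was 64.3-fold higher on its probe (limma adjusted p = 5.72e-05). Of the ileum markers, Muc2, the main secreted mucin, was lower by 1.98 (limma adjusted p = 6.15e-04), and Slc10a2, the ileal bile acid transporter, was present in both groups at means of 6.09 with doxycycline and 5.58 with saline.

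Igj encodes the J chain, the peptide that joins IgA monomers. Its level was 5.96, 6.42, 5.93 and 6.65 with doxycycline and 7.24, 7.23, 6.78 and 7.01 with saline. All 4 doxycycline arrays lay below all 4 saline arrays, with doxycycline 4 closest to saline 3. The means were 6.24 ± 0.36 and 7.07 ± 0.21 (SD), a difference of −0.83 (SE 0.209), which is 1.77-fold lower with a 95% interval of 1.28 to 2.46 (limma adjusted p = 0.0325, exact permutation p = 0.0286). The difference was negative under all 20 other settings, between −1.01 and −0.72, and the call was lost in 10 of them, among them leaving out doxycycline 1, doxycycline 3, saline 1, saline 2 or saline 3, with a highest limma adjusted p of 0.118. Its probe lies at chr5:88949919-88949978 on build mm9.

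**Figure D1:**
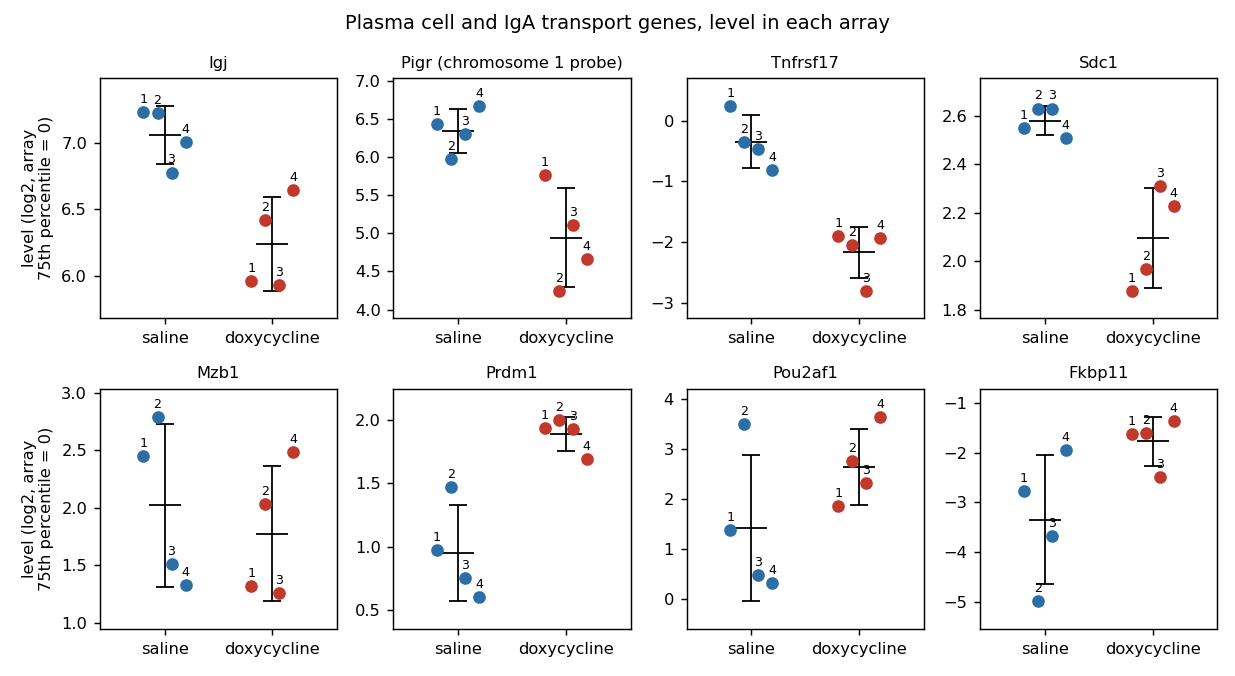
Level of each of the 8 genes in every array (log2, with the array's 75th percentile at 0), saline in blue and doxycycline in red, each point numbered by replicate, with the group mean and SD as bars and a separate y axis per panel. Igj, Pigr on its chromosome 1 probe, Tnfrsf17, Sdc1 and Prdm1 do not overlap between the groups, while Mzb1, Pou2af1 and Fkbp11 do.

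Immunoglobulin chains were measured by few probes. The names tested are those of variable genes, and none names IgA. The array held 9 names of immunoglobulin chain genes, and 6 were tested. None was called in either direction by limma, and 5 of the 6 had a lower mean with doxycycline. The median difference of all genes tested was 0.01. The other chain, Igkv6-20, differed by 0.20 (SE 0.482, limma adjusted p = 0.811). It is named outside the rule for named genes, with its value known. An unadjusted p under 0.05 was reached by 1 of the 6, against 6721 of all 21368 genes tested. Iglv1, a lambda light chain variable gene, gave 3.89, 4.74, 5.02 and 5.58 with doxycycline and 6.10, 6.03, 6.34 and 5.15 with saline, a difference of −1.10 (SE 0.379, limma adjusted p = 0.0858). Only doxycycline 4 lay above the lowest saline array, saline 4. The light chain gene Igkv4-53 differed by −1.31 (SE 0.900, limma adjusted p = 0.356) and Igkv4-72 by −0.81 (SE 0.494, limma adjusted p = 0.298). The heavy chain genes Ighv1-33 and Igh-VJ558 differed by −0.49 (limma adjusted p = 0.585) and −0.26 (limma adjusted p = 0.794). These genes belong to large families of near-identical copies, so which gene each probe reads is uncertain.

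Pigr encodes the receptor that carries dimeric IgA across the epithelium, and it is made by epithelial cells rather than plasma cells. The 2 Pigr probes are shown by their first 30 bases, because they differ in kind.
Pigr chromosome 1 probe: tcatgattttcagatgagaagagatgtttc
Pigr repeat probe: gaggaggaggaggagaaggagaaggagaag
The chromosome 1 probe lies at chr1:132748041-132748100 on build mm9 and holds 31 distinct triplets of bases in 58 positions. The repeat probe lies at chr19:5932558-5932617, consists of A and G for 100% of its bases, holds 6 distinct triplets in 58 positions and is assigned to 4 transcripts. On the chromosome 1 probe, the level was 5.76, 4.25, 5.11 and 4.66 with doxycycline and 6.43, 5.97, 6.31 and 6.67 with saline. All 4 doxycycline arrays were below all saline arrays, and the gap between doxycycline 1 and saline 2 was narrow. The means were 4.94 ± 0.65 and 6.35 ± 0.29 (SD), a difference of −1.40 (SE 0.315), or 2.65-fold lower with a 95% interval of 1.62 to 4.34 (limma over all probes, adjusted p = 0.0230, exact permutation p = 0.0286). The call was lost without doxycycline 3 (limma adjusted p = 0.0553), doxycycline 4 (0.0656), saline 1 (0.0646) or saline 3 (0.0607). On the repeat probe, which is the brighter and so reads the gene under the fixed rule, the level was 7.56, 6.06, 6.56 and 6.54 with doxycycline and 7.40, 7.21, 7.51 and 7.66 with saline. Here doxycycline 1 lay among the saline arrays. The difference was −0.77 (SE 0.295, limma adjusted p = 0.115, exact permutation p = 0.114), and without doxycycline 1 the limma adjusted p was 0.0126. A further probe of A and G repeats, named Gcm1 and also listing a Pigr transcript, gave −0.85 (limma adjusted p = 0.0795). The deviations of the chromosome 1 probe from its group means had r = 0.94 with those of the repeat probe over 8 arrays, which share RNA, labelling and scaling.

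Tnfrsf17 encodes BCMA, the receptor through which plasma cells receive the survival signals BAFF and APRIL. It had the largest fold among the members called. Its level was −1.90, −2.05, −2.80 and −1.93 with doxycycline and 0.24, −0.35, −0.47 and −0.81 with saline. The groups were separated by a wide gap, and doxycycline 3 was lowest. The means were −2.17 ± 0.43 and −0.35 ± 0.44 (SD), a difference of −1.82 (SE 0.278), or 3.53-fold lower with a 95% interval of 2.29 to 5.46 (limma adjusted p = 0.00450, exact permutation p = 0.0286). The gene was called lower under all 20 other settings, with differences from −2.05 to −1.40 and a highest limma adjusted p of 0.0256. Its probe lies at chr16:11320045-11320104 on build mm9.

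Sdc1 encodes syndecan-1, a surface proteoglycan that marks plasma cells and is also made by epithelial cells. Its level was 1.88, 1.97, 2.31 and 2.23 with doxycycline and 2.55, 2.63, 2.63 and 2.51 with saline. The saline arrays lay close together and above all doxycycline arrays. The means were 2.10 ± 0.21 and 2.58 ± 0.06 (SD), and the difference of −0.48 (SE 0.149), or 1.40-fold lower, missed the threshold (limma adjusted p = 0.0618, exact permutation p = 0.0286). It passed in 4 of the 20 other settings, with dim probes kept (limma adjusted p = 0.0406), with the filter at all 8 arrays (0.0426), with the common floor (0.0304) and with array weights (0.0310). Among all 5 tested genes of the syndecan list, 1 was called higher and none lower, with a median difference of −0.01. The higher gene was Sdc3 at 0.74 (SE 0.196, limma adjusted p = 0.0386), which lost its call without doxycycline 2, 3 or 4 or any 1 saline array (limma adjusted p up to 0.161). That call was also lost with normexp background, the replicate block, saline 2 and 4 both left out, and the B cell marker mean as a covariate. Sdc2 differed by −0.39 (limma adjusted p = 0.134).

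Mzb1 encodes a chaperone of the endoplasmic reticulum that helps plasma cells assemble antibody. Its level was 1.32, 2.03, 1.26 and 2.48 with doxycycline and 2.45, 2.79, 1.51 and 1.33 with saline. The groups overlapped through most of their range. The means were 1.77 ± 0.59 and 2.02 ± 0.71 (SD), a difference of −0.25 (SE 0.396) with a 95% interval of −1.15 to 0.65 (limma adjusted p = 0.703, exact permutation p = 0.571), and without saline 2 it was 0.0039. The interval holds both a fall as large as that of Igj and a rise of up to 0.65.

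Prdm1 encodes Blimp-1, the repressor that ends the B cell programme in plasma cells and is also active in other cells, gut epithelium among them. Its level was 1.94, 2.0, 1.93 and 1.69 with doxycycline and 0.97, 1.47, 0.75 and 0.60 with saline. All 4 doxycycline arrays were higher than all saline arrays, and they lay closer together. The means were 1.89 ± 0.14 and 0.95 ± 0.38 (SD), a difference of 0.94 (SE 0.204), or 1.92-fold higher with a 95% interval of 1.40 to 2.65 (limma adjusted p = 0.0191, exact permutation p = 0.0286). The call was lost without doxycycline 3, saline 1 or saline 3, with a highest limma adjusted p of 0.106 over all settings. Igj and Tnfrsf17 were lower in the same arrays in which Prdm1 was higher.

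Pou2af1 encodes OBF-1, the B cell partner of octamer-binding factors, active in B cells as well as plasma cells. Its level was 1.87, 2.76, 2.32 and 3.65 with doxycycline and 1.39, 3.50, 0.49 and 0.32 with saline. Saline 2 lay with the highest doxycycline arrays, and the other saline arrays lay below all of them. The means were 2.65 ± 0.76 and 1.43 ± 1.46 (SD), a difference of 1.22 (SE 0.686) that missed the threshold (limma adjusted p = 0.259, exact permutation p = 0.171). Without saline 2 it was 1.92 (limma adjusted p = 0.0278).

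Fkbp11 encodes a prolyl isomerase of the endoplasmic reticulum found in secretory cells. Its level was −1.62, −1.60, −2.49 and −1.37 with doxycycline and −2.78, −4.99, −3.68 and −1.95 with saline. Saline 4 overlapped the doxycycline arrays and saline 2 was lowest. The signal was marked well above background in all 4 doxycycline arrays but in 2 of the 4 saline arrays. The means were −1.77 ± 0.49 and −3.35 ± 1.30 (SD), a difference of 1.58 (SE 0.584) that missed the threshold (limma adjusted p = 0.103, exact permutation p = 0.0571). Without saline 4 it was 2.05 (limma adjusted p = 0.0373) and with array weights 1.58 (limma adjusted p = 0.0406). It was 1.03 without saline 2 (limma adjusted p = 0.141), 0.82 with the common floor (limma adjusted p = 0.141) and 0.33 with normexp background (limma adjusted p = 0.272). Of 14 tested genes of the FK506-binding protein list, 2 were called higher and 1 lower, with a median of −0.14. Fkbp5, a cochaperone of steroid receptors, was 5.58-fold higher (difference 2.48, SE 0.176, limma adjusted p = 3.58e-04), and Fkbp2, of the endoplasmic reticulum like Fkbp11, was lower by 0.56 (limma adjusted p = 0.0419). The call of Fkbp2 was lost without doxycycline 1, 3 or 4 or saline 1, 3 or 4, with a limma adjusted p up to 0.202. It was also lost with quantile normalization, the replicate block, saline 2 and 4 both left out, and the B cell marker mean as a covariate.

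**Figure D2:**
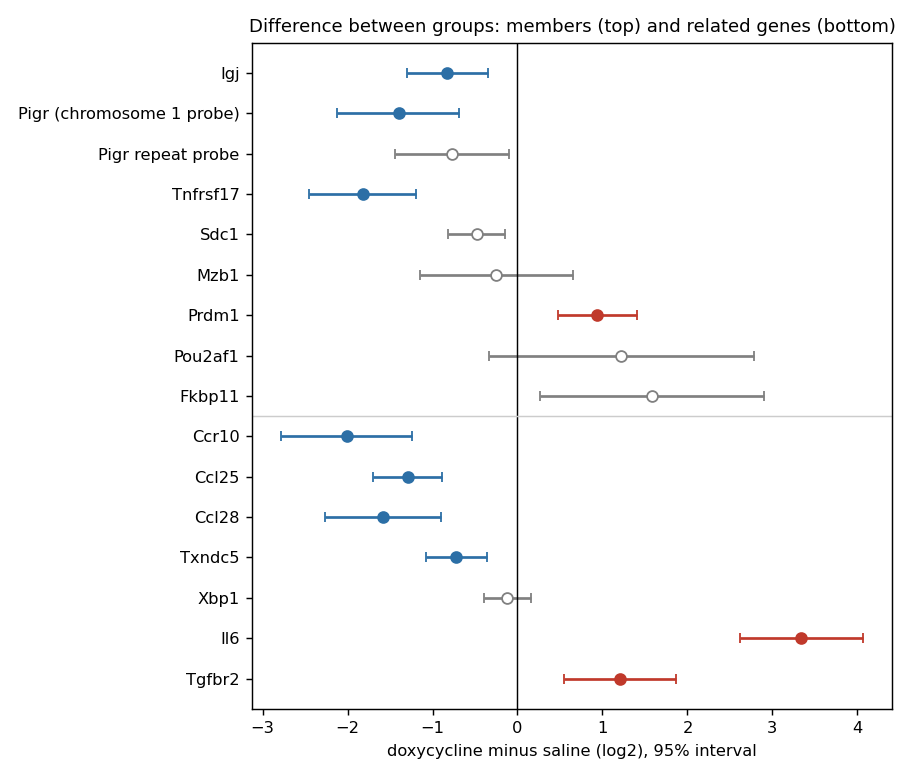
Difference between the groups (doxycycline minus saline, log2) with its 95% interval for the 8 genes, with both Pigr probes, above the line and for related genes below it; filled points passed the limma threshold, blue lower and red higher, and open points did not. Tnfrsf17 at −1.82 and Ccr10 at −2.01 lie furthest to the left, and Prdm1 at 0.94 lies on the other side of 0.

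B cells and follicles are the tissue from which plasma cells come, and their markers differed widely between the arrays. The mean of the 17 B cell markers, set to 0 at the saline mean, was 1.14, 1.80, 1.26 and 2.36 with doxycycline and −0.66, 2.71, −0.92 and −1.13 with saline. Saline 2 was the highest array of all, and the other saline arrays were the lowest. None of the 17 was called by limma, and their median difference was 1.56. An unadjusted p under 0.05 was reached by 4 of the 17, against 6721 of all 21368 genes tested. Fcmr, the receptor for IgM, differed by 3.26 (limma adjusted p = 0.107), H2-Ob by 2.58 (limma adjusted p = 0.110) and the B cell receptor chain Cd79b by 1.98 (limma adjusted p = 0.123). All 17 were well above background on every doxycycline array, while Blk, named outside the rule with its value known, was so on no saline array.

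The 12 tested follicle and Peyer's patch markers showed the same arrays apart. Their mean was 1.28, 2.07, 1.62 and 2.80 with doxycycline and −0.67, 2.26, −0.79 and −0.80 with saline. Of these, 3 were called higher and 1 lower, with a median of 1.71, against 5.95% higher and 8.14% lower over all genes tested. Glycam1, a ligand of lymphocyte homing on high endothelial venules, was higher by 5.26 (SE 0.741, limma adjusted p = 0.00311). Cxcl13, the chemokine that draws B cells into follicles, was higher by 2.83 (limma adjusted p = 0.0326) and Gp2, a receptor of the M cells over the patches, by 3.70 (limma adjusted p = 0.0327). For both Cxcl13 and Gp2, saline 2 lay among the doxycycline arrays. Both of these calls were lost without doxycycline 2, 3 or 4 or saline 1, 3 or 4, with a highest limma adjusted p of 0.0899. Both were also lost with the common floor, that of Cxcl13 with the replicate block and the B cell covariate, and that of Gp2 with averaged probes. Glycam1 and Gp2 were each well above background in 1 of the 4 saline arrays, so their saline levels are partly limits. Tnfrsf11a, the receptor RANK, was lower by 0.99 (limma adjusted p = 0.0141), a call lost with the B cell covariate (limma adjusted p = 0.0907).

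The members differed in how they moved with these markers from array to array. Over 8 arrays, as deviations from the group means, the B cell marker mean had r = 0.96 with Pou2af1, 0.79 with Prdm1, 0.77 with Mzb1 and 0.52 with Igj. It had r = 0.15 with Tnfrsf17, −0.70 with Fkbp11 and −0.54 with Pigr on the chromosome 1 probe. This was not particular to B cell markers. The mean of the T cell markers described below had r = 0.96 with Mzb1, 0.94 with Pou2af1 and 0.77 with Igj. It had r = 0.58 with Prdm1, 0.51 with Tnfrsf17 and 0.83 with the B cell marker mean. Mzb1 and Igj had r = 0.88. These values describe 8 arrays that share RNA, labelling and scaling within each array. With the B cell marker mean as a covariate in the limma fit, added after the data were seen, Tnfrsf17 differed by −1.90 (limma adjusted p = 0.0256) and Igj by −1.01 (limma adjusted p = 0.0563). In that fit Pigr on the chromosome 1 probe differed by −1.07 (limma adjusted p = 0.130), Prdm1 by 0.67 (limma adjusted p = 0.106), Mzb1 by −0.86 (limma adjusted p = 0.197), Pou2af1 by −0.14 (limma adjusted p = 0.827) and Fkbp11 by 2.42 (limma adjusted p = 0.0465).

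**Figure D3:**
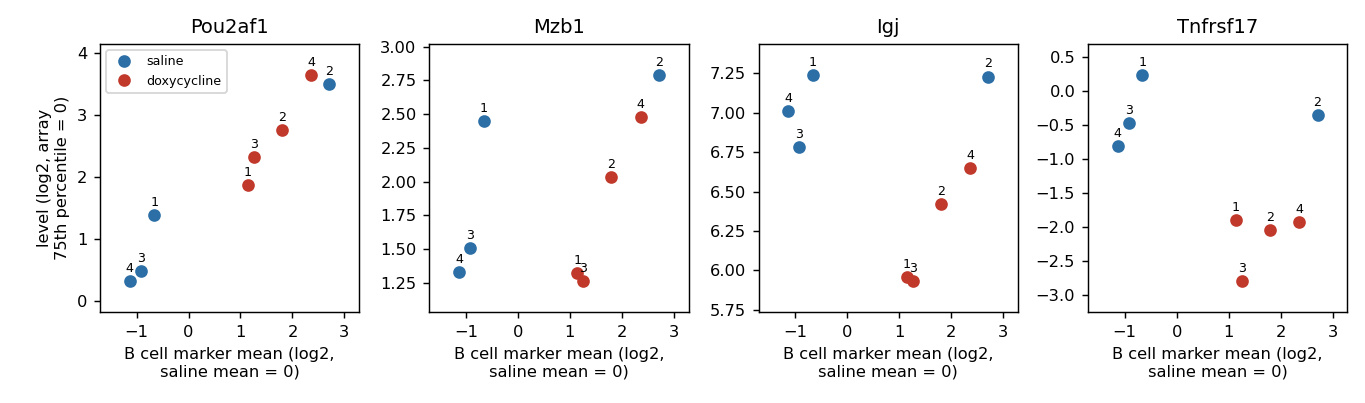
Level of Pou2af1, Mzb1, Igj and Tnfrsf17 (log2, array 75th percentile at 0) against the mean of the 17 B cell markers (log2, saline mean at 0) in each array, saline in blue and doxycycline in red, numbered by replicate. Saline 2 stands at 2.71 on the x axis with the doxycycline arrays, yet at −0.35 for Tnfrsf17, with the other saline arrays.

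The mean of 12 T cell markers ran from −0.05 to 0.63 with doxycycline and from −0.46 to 0.52 with saline, with none called by limma and 1 at an unadjusted p under 0.05. In that list Cd3g differed by −0.47 (limma adjusted p = 0.168). The mean of 13 epithelial markers ran from −0.39 to −0.08 with doxycycline and from −0.14 to 0.14 with saline, and 2 were called lower, Cdx2 by 1.15 (limma adjusted p = 0.00560) and Krt19 by 0.62 (limma adjusted p = 0.0246). That list's mean had r = 0.69 with Pigr on the chromosome 1 probe, as deviations over 8 arrays. With Fkbp11 it had r = 0.64, with Pou2af1 −0.79, with Sdc1 −0.76 and with Mzb1 −0.67. Of 8 myeloid markers, Mrc1 was higher by 1.04 (limma adjusted p = 0.00546) and Adgre1 lower by 0.96 (limma adjusted p = 0.0258). Of 7 stromal markers 2 were higher, Pdgfra by 1.23 and Pdgfrb by 0.81, of 7 smooth muscle markers 1 was lower, Synpo2 by 0.89, and of 4 tuft cell markers 2 were lower, Dclk1 by 0.78 and Trpm5 by 0.93. Leaving out 1 array ended the calls of Krt19, Adgre1, Pdgfra, Pdgfrb, Synpo2, Dclk1 and Trpm5. Each was lost without saline 3, and all but Synpo2 without doxycycline 4, with further arrays for each gene but Pdgfra. Each was also lost with the B cell covariate, and the calls of Krt19, Pdgfra and Pdgfrb also with the replicate block. The calls of Cdx2 and Mrc1 held without any 1 array. None of the 4 tested pancreas markers was called by limma, and none had an unadjusted p under 0.05. The part of these cell types in the members' differences was not tested beyond the B cell covariate.

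Among 21 tested plasma cell markers outside the members, 4 were called lower and none higher, and the median difference was 0.00. Over all genes tested, 8.14% were lower and 5.95% higher. Ccr10, the receptor that brings IgA plasma cells to epithelium, was −2.0, −2.42, −3.72 and −2.73 with doxycycline and −0.35, −0.85, −0.95 and −0.67 with saline. The groups did not overlap, and the difference of −2.01 (SE 0.340) was 4.04-fold lower (limma adjusted p = 0.00714), called in all 20 other settings. Txndc5, a disulphide isomerase, was lower by 0.72 (SE 0.159, limma adjusted p = 0.0202), Hid1, of the secretory pathway, by 0.69 (SE 0.152, limma adjusted p = 0.0200) and Tram2, of protein translocation, by 0.89 (SE 0.221, limma adjusted p = 0.0309). These 3 calls were lost without doxycycline 3, saline 1 or saline 3, with the replicate block and with the B cell covariate. Those of Hid1 and Tram2 were also lost without doxycycline 4, and that of Tram2 without saline 2. The highest limma adjusted p was 0.119. Lax1 differed by 1.09 (limma adjusted p = 0.183) and Glipr1 by −0.49 (limma adjusted p = 0.226). Xbp1, the factor that expands the secretory apparatus, is named outside the rule for named genes, with its value known: it was 6.17, 6.29, 6.16 and 6.15 with doxycycline and 6.37, 6.28, 6.27 and 6.32 with saline, and it differed by −0.12 (SE 0.124, limma adjusted p = 0.543). In the ileum Xbp1 is also made by secretory epithelial cells.

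None of 19 plasma cell fate factors was called by limma, with a median of 0.41. An unadjusted p under 0.05 was reached by 3 of the 19, against 6721 of all 21368 genes tested. Id3, an inhibitor of E proteins, differed by −0.52 (limma adjusted p = 0.0641) without overlap. Spib and Ebf1, B cell factors, differed by 1.20 (limma adjusted p = 0.263) and 1.14 (limma adjusted p = 0.161), and Ets1 by 0.64 (limma adjusted p = 0.207). Pou2f1, an octamer-binding partner of Pou2af1, differed by 0.46 (limma adjusted p = 0.135). No saline array had Spi1 well above background (−3.79 with doxycycline, −4.83 with saline, limma adjusted p = 0.0949), and no fold is given.

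Of 19 tested genes of IgA induction and plasma cell survival, 4 were called higher and none lower, with a median of 0.70. Among all genes tested, 5.95% were higher and 8.14% lower. Il6 and Il5ra, among the 4, passed the probe filter through the doxycycline arrays alone. Il6, a survival factor of plasma cells, was −2.35, −1.06, −2.48 and −1.50 with doxycycline and in no saline array was it well above background, so the saline level is only a limit (limma adjusted p = 6.15e-04). Il5ra, a receptor of B-1 cells and eosinophils, was likewise well above background in all 4 doxycycline arrays and no saline array (limma adjusted p = 0.0108). Set against the lowest signal well above background in each saline array, the doxycycline means were 2.30-fold higher for Il6 and 2.78-fold for Il5ra, and these sizes depend on the floor. With 1 floor common to all arrays, the differences were 0.97 (limma adjusted p = 0.104) and 1.25 (limma adjusted p = 0.0839), so both calls were lost, and that of Il5ra also with the B cell covariate. Smad4, a mediator of TGF-beta signals, was higher by 0.84 (SE 0.144, limma adjusted p = 0.00749) and the TGF-beta receptor Tgfbr2 by 1.21 (SE 0.292, limma adjusted p = 0.0279). The other TGF-beta genes of the list, named outside the rule with their values known, were not called: Smad3 differed by −0.43 without overlap (limma adjusted p = 0.131), Tgfb1 by 0.81 (limma adjusted p = 0.211) and Tgfbr1 by 0.21 (limma adjusted p = 0.478). Smad4 was called in all 20 other settings, and Tgfbr2 lost its call in 9, among them leaving out doxycycline 2, 3 or 4 or saline 1, 3 or 4. Mcl1, on which plasma cells depend for survival, differed by 0.42 (limma adjusted p = 0.0838). Tnfsf13, Il5, Il10, Cd40lg and Tslp were not tested.

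The homing list held 3 higher and 3 lower genes of 13, with a median of 0.14, beside 5.95% higher and 8.14% lower over all genes tested. The epithelial chemokines that draw IgA cells were lower. Ccl25, made by small intestinal epithelium, was 6.62, 5.97, 6.28 and 6.13 with doxycycline and 7.53, 7.37, 7.49 and 7.79 with saline, a difference of −1.29 (SE 0.180), or 2.45-fold lower (limma adjusted p = 0.00297). Ccl28, the ligand of Ccr10, was 0.82, −0.46, −0.12 and −0.37 with doxycycline and 1.57, 1.27, 1.34 and 2.03 with saline, a difference of −1.58 (SE 0.304), or 3.0-fold lower (limma adjusted p = 0.0121). Neither gene overlapped between the groups. The call of Ccl25 was lost when its probes were averaged (−0.68), and that of Ccl28 without saline 2 and 4 together and with the B cell covariate, with a highest limma adjusted p of 0.0812. The higher genes were Vcam1, an adhesion molecule of vessels, by 1.78 (limma adjusted p = 0.0190), S1pr1, the egress receptor, by 1.68 (limma adjusted p = 0.0302) and Cxcr4 by 2.34 (limma adjusted p = 0.0497). For S1pr1 and Cxcr4 the groups overlapped through saline 2, at 0.23 and −0.15 (exact permutation p = 0.0571 each). All 3 lost their call without doxycycline 3 or 4 or saline 1 or 3, and with the B cell covariate. S1pr1 and Cxcr4 lost it also without doxycycline 2 or saline 4 and with the common floor. That of Cxcr4 was also lost with the deposited table, quantile normalization, the replicate block and the 75th percentile over probes detected on all arrays. The highest limma adjusted p was 0.124.

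Pigr is raised in epithelium by inflammatory signals, and 26 genes of those signals were tested: 4 were higher and 2 lower, with a median of −0.01. Shares over all genes tested were 5.95% higher and 8.14% lower. The higher genes were Il4ra by 1.28 (SE 0.167, limma adjusted p = 0.00218), the adaptor Myd88 by 1.14 (SE 0.167, limma adjusted p = 0.00376), Tnf by 1.60 (SE 0.275, limma adjusted p = 0.00759) and its receptor Tnfrsf1a by 0.70 (SE 0.135, limma adjusted p = 0.0123). The lower genes were Ifngr2, a chain of the interferon gamma receptor, by 1.17 (SE 0.162, limma adjusted p = 0.00288), and Nr3c1, the glucocorticoid receptor, by 1.04 (SE 0.129, limma adjusted p = 0.00178). None of the 6 overlapped between the groups, and Tnf was well above background in 3 of the 4 saline arrays. Leaving out any single array ended none of these 6 calls. With the B cell covariate, those of Tnf (limma adjusted p = 0.0523) and Tnfrsf1a (limma adjusted p = 0.0584) were lost. That of Tnfrsf1a was also lost with the replicate block.

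The machinery that moves the receptor and its cargo through epithelial cells gave 3 lower genes of 28 and none higher, with a median of −0.25. The count of lower genes was near the share of all genes tested, of which 8.14% were lower and 5.95% higher. The list mean ran from −0.26 to −0.14 with doxycycline and from −0.10 to 0.10 with saline, without overlap. Rab5b, of early endosomes, was lower by 0.84 (SE 0.192, limma adjusted p = 0.0230), Rab3b, which binds the receptor, by 0.98 (SE 0.233, limma adjusted p = 0.0263) and Ap1m2, the epithelial sorting adaptor, by 0.50 (SE 0.124, limma adjusted p = 0.0308). All 3 calls were lost without doxycycline 3, doxycycline 4 or saline 1, without saline 2 and 4 together and with the B cell covariate. Those of Rab3b and Ap1m2 were also lost with the replicate block, and that of Rab5b without saline 3 and with averaged probes. That of Ap1m2 was also lost without doxycycline 2, saline 2 or saline 3. The highest limma adjusted p was 0.133. Myo5b, the motor of recycling endosomes, differed by −0.54 (limma adjusted p = 0.0743). Of 12 tested immunoglobulin receptors other than Pigr, 1 was higher, Fcgr3 by 1.46 (SE 0.315, limma adjusted p = 0.0189), and the median was 0.92. The call of Fcgr3 was lost without doxycycline 3, doxycycline 4 or saline 3, with the replicate block and with the B cell covariate. Its limma adjusted p ran up to 0.110. Fcgrt, the neonatal Fc receptor that carries IgG across epithelium, differed by −0.53 (limma adjusted p = 0.0892), Fcgr2b by 1.36 (limma adjusted p = 0.0948) and Trim21 by 0.50 (limma adjusted p = 0.0970).

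Among 53 genes of the endoplasmic reticulum and secretion, 5 were lower and 1 higher, with a median of −0.18. Here too the count of lower genes was near the share of all genes tested, 8.14% lower and 5.95% higher. Besides Txndc5 and Tram2, the lower genes were Pdia5, a disulphide isomerase, by 0.83 (SE 0.183, limma adjusted p = 0.0204), Edem1, of the disposal of misfolded glycoproteins, by 0.91 (SE 0.215, limma adjusted p = 0.0256) and Fkbp2. The calls of Pdia5 and Edem1 were lost without doxycycline 3, doxycycline 4, saline 1 or saline 3 and with the B cell covariate. That of Pdia5 was also lost with the replicate block, and that of Edem1 without saline 2 and 4 together. The highest limma adjusted p was 0.120. Herpud1, of the same disposal route, was higher by 0.83 (SE 0.216, limma adjusted p = 0.0367) and is named outside the rule, with its value known, as the single higher gene.

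**Figure D4:**
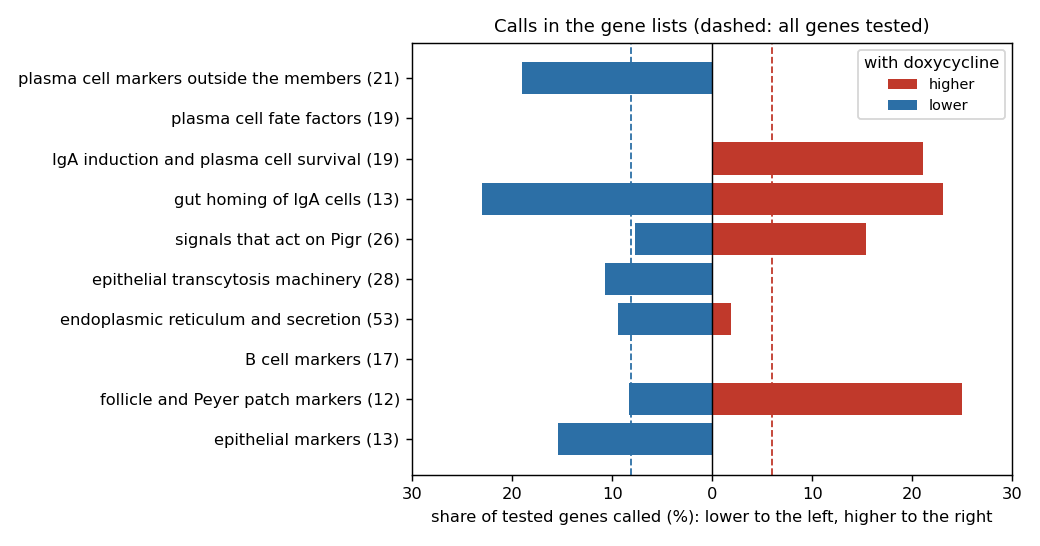
Share of the tested genes of each list called lower (blue, left) or higher (red, right) with doxycycline by limma, in percent, with the number tested in brackets; dashed lines give the shares over all genes tested, 8.14% lower and 5.95% higher. No bar stands for plasma cell fate factors or B cell markers, in which no gene was called.

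The genes whose deviations from the group means were most like those of Igj, over 8 arrays and 13831 genes, were Mettl9 (r = 0.982), Mdfic (0.972), Gins3 (0.968), Aif1 (0.968) and Limk1 (0.963). None of these 5 was called between the groups by limma. The genes most like Pigr on its chromosome 1 probe were Apc (r = 0.993), Hk1 (0.989), Htatsf1 (0.983), Slc25a24 (0.981) and Plch2 (0.980), of which Plch2 was called lower, by 1.22 (limma adjusted p = 0.0263). With so many genes and 8 arrays, these values rank likeness and describe nothing further.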

How the data were processed

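Single-colour Agilent arrays (Cy3) of 8 ileum samples were used, 4 per group, from 200 ng of RNA each. The deposited scanner files hold processed intensity per spot from Agilent Feature Extraction 10.7.3.1, per the submitters' processing notes. The authors' deposited value table holds log2 values that equal the log2 processed intensity minus 1 constant per array, with column medians of −3.77, −3.92, −3.83 and −3.81 (doxycycline) and −3.97, −3.70, −3.79 and −3.86 (saline); its centring is not given in the sources used here. Each array had 62976 spots, 59305 of them probe spots.

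Here, log2 processed intensity was set to each array's 75th percentile over probe spots, outlier spots were dropped and spots of a probe averaged. Probes well above background on at least 4 arrays were kept (28636), and each gene was read by its brightest kept probe. The group difference of each gene was fitted in limma 3.58.1 (R 4.3.3), two-sided, with Benjamini-Hochberg adjustment at 0.05, which was tested on simulated data. Alternatives were normexp background (offset 50), the deposited table, quantile normalization, other probe filters and a floor, averaged probes, array weights, a replicate block and leaving out arrays. The 75th percentile over probes detected on all arrays, the B cell covariate and the count with the chromosome 1 probe of Pigr were chosen after seeing the data.

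Genes are named by rule: the members, Tnk1 and Hprt, the 4 or 6 smallest p-values of each of 20 lists, 5 immunoglobulin chains by p and 3 by level, and the 5 genes most like Igj and Pigr. Of the lists, those genes not past the threshold are partly given as counts. Members and lists were chosen with earlier results of these data known. Probe positions are on mm9 per the file headers, promoters from RefSeq on GRCm38.p6. The Mzb1 promoter and some genes that the rule would name are not reported here.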

Additional observations from a re-analysis of the deposited data

Results flagged for a closer look

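In a group of 4 arrays, an array was marked when its gap to the nearest other array took a larger part of the group's whole range than Dixon's critical value (95%) for 4 values. 202 groups were looked at, and chance marks about 1 in 20. The number of marks found was close to that share, so no single mark is read as a finding. Among the members, 1 array stood apart: Tnfrsf17 in doxycycline 3, at −2.80.

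Saline 2 stood above the other saline arrays in 4 genes of B cells and follicles, with Fcmr at 3.79, H2-Ob at 2.04, Glycam1 at −2.60 and Gp2 at 0.81. The same array had the highest B cell marker mean of all 8, at 2.71. The results on Pou2af1 and Mzb1 are given above with and without it.

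The other marks were Id3 at 2.72 in doxycycline 4 and at 3.21 in saline 4, each the lowest of its group. Smad4 was highest in doxycycline 3, at 5.01, and Krt19 in doxycycline 2, at 7.13. Trim21 was highest in saline 1, at 1.00, and Sdcbp2 lowest in saline 4, at 3.97.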

How the results depend on the processing

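Over the 20 other settings, Tnfrsf17 was called lower in all. The number of members called lower, 2 in the fit reported, was 1 with quantile normalization, 1 with the replicate block, 1 without saline 2 and 4 together, 1 with the 75th percentile over probes detected on all arrays, 1 with the B cell covariate and 4 with array weights. It was 3 when dim probes were kept, with the filter at all 8 arrays, with the common floor, with averaged probes and with the chromosome 1 probe of Pigr, and it ran from 1 to 2 when 1 array was left out. The number called higher, 1 in the fit reported, was 2 with array weights and ran from 0 to 2 when 1 array was left out. Same-numbered arrays shared a slide column. Their deviations had r of 0.01, −0.04, 0.11 and 0.01, which cannot show whether the samples were paired. With the replicate block, 771 genes of the whole array were higher and 930 lower, against 1271 and 1739. Whole-array counts were 2879 and 3552 with array weights, 1837 and 11900 when dim probes were kept, 1337 and 2602 with normexp background, 1051 and 1054 without saline 2 and 4 together and 532 and 508 with the B cell covariate. They were 640 and 828 without doxycycline 3, 732 and 901 without doxycycline 4, 644 and 759 without saline 1, and 646 and 735 without saline 3.

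Of the differences of named genes under these settings, 1682 kept their direction and side of the threshold, 226 lost their call, 72 gained 1 and 23 changed sign. The changes of sign were as follows. Mzb1 was 0.0039 without saline 2, with leaving out 1 array giving −0.49 to 0.0039. With the B cell covariate, Pou2af1 was −0.14, Spib −0.19, Cd2 −0.29 and Cela1 −0.26. With normexp background, Spi1 was −0.20, Gfi1b −0.03, Cel −0.21 and Cela1 −0.28. With the common floor, Gfi1b and Cela1 were −0.05. Without saline 2 and 4 together, Sdcbp2 was −0.05 and Cela1 −0.18. Cela1 was −0.12 with array weights, and Amy2a5 was 0.06 with quantile normalization. Averaging its probes gave Tnk1 1.16. Leaving out 1 array gave −0.04 to 0.21 for Sdcbp2, −0.52 to 0.40 for Amy2a5, −0.23 to 0.15 for Cela1 and −0.84 to 0.04 for Igh-VJ558. The causes were not tested. Depth is not known for arrays; 4 per group and the signal over background limit the precision, and Fkbp11, Il6 and Il5ra were dim with saline. With the replicate block the log2 difference of Tnfrsf11a lost its call (limma adjusted p = 0.0515).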
